A study of Schmidtea mediterranea with 5 samples.

Results

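In planarians, 135 transcripts exceeded their X1 level at least 4-fold in the sorted X2 fraction, yet lay at a similar level in X2, in irradiated worms and in unirradiated worms. They were picked from the measured values by a rule. A member had a level of 10 CPM or more in X2, where CPM are the mapped reads of a transcript after every library is scaled to an equal total, and an X2/X1 ratio of at least 4. Its ratio was 0.5 to 2 for X2 over irradiated worms, 0.67 to 1.5 for *control(RNAi)* over irradiated worms, and above 0.5 and below 2 for *mex3-1(RNAi)* over *control(RNAi)*. All ratios are of CPM + 1. The members are 135 of the 68301 transcripts measured in all 5 libraries and 1.77% of the 7648 transcripts with at least 10 CPM in X2. Because values of all 5 libraries chose them, their levels and ratios are given as a description and nothing is tested with them.

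All worms were of the clonal asexual strain CIW4 of *Schmidtea mediterranea*. The X1 and X2 fractions were cells of dissociated worms, stained with the DNA dye Hoechst and sorted by flow cytometry. Irradiated whole worms were taken 7 days after 60 Gy of gamma irradiation. *control(RNAi)* worms had eaten double-stranded RNA of *unc22*, a *C. elegans* gene, and *mex3-1(RNAi)* worms that of *mex3-1*. Both RNAi groups were taken whole, 12 days after 1 feed by their titles, although the growth notes of the series give 5 feeds. Each RNAi library was an equal mix of 3 RNA preparations. Each condition has 1 library in this series, so no difference has a replicate check here. The irradiated worms and the *control(RNAi)* worms differ in RNAi feeding as well as in irradiation, and the effects of these cannot be told apart. X2 cells of irradiated worms were not measured, so whether the transcripts stay in X2 cells after irradiation was not tested.

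Planarians replace their tissues throughout life from dividing stem cells, the neoblasts, which express *piwi-1* and are killed by irradiation. The X1 gate collects cells with more DNA than resting cells have, and so neoblasts in the cell cycle. The X2 gate, by the study's account, collects cells that read as having less DNA than resting cells because the Hoechst dye leaves them. Among them are neoblasts before DNA replication and their postmitotic progeny, and the study found X2-enriched transcripts in a mixture of other cell types. The study describes the X2 population, like X1, as lost after irradiation. Whether the gate also holds cells that irradiation does not remove was not tested here. The best known progeny in this gate belong to the epidermal lineage, in which *prog-1* marks an early and *AGAT-1* a later stage. MEX3 proteins bind RNA and are best known as translational repressors in the *C. elegans* embryo.

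The libraries held 60513174 to 69747125 mapped reads, recovered from the deposited values. The most abundant transcript took 11.3% to 21.0% of the reads of a library and the 10 most abundant took 18.1% to 27.6%, with no member among them. The reference transcripts followed the labels. *piwi-1* was at 3697 CPM in X1, 934 CPM in X2, 308 CPM in *control(RNAi)* worms, 452 CPM in *mex3-1(RNAi)* worms and 3.21 CPM in irradiated worms. *prog-1* reached 2156 CPM in X2, against 1.03 CPM in irradiated worms. *mex3-1* itself was at 144 CPM in *control(RNAi)* worms and 23.4 CPM in *mex3-1(RNAi)* worms, a ratio of 0.168. Over transcripts at 5 CPM or more in each of the compared libraries, the median log2 ratio was 0.31 for X2 over irradiated worms and 0.23 for X1 over irradiated worms. Log2 ratios of single members against irradiated worms are therefore given relative to these medians for the sorted fractions. For the other ratios used here the median lay between 0.02 and 0.09 and was left as it is. Intervals beside a ratio are 95% intervals of the reads of the 2 libraries and cover counting error only.

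Across the members, levels jumped once, between X1 and everything else. The median member was at 3.32 CPM in X1, with a range of 0.247 to 371 CPM. In X2 the median was 31.3 CPM, with a range of 10.1 to 1494 CPM. The medians of the whole worms were 33.03 CPM after irradiation, 35.6 CPM in *control(RNAi)* and 32.97 CPM in *mex3-1(RNAi)*. Together the members took 0.155% of the reads in X1, 1.04% in X2, 0.893% in irradiated worms, 0.954% in *control(RNAi)* worms and 0.824% in *mex3-1(RNAi)* worms. All 135 were lowest in X1. The rule fixes this against X2, irradiated and *control(RNAi)* worms, but not against *mex3-1(RNAi)* worms. The library with the highest value was X2 for 58 members, *control(RNAi)* for 43, *mex3-1(RNAi)* for 20 and irradiated worms for 14. In X1, 21 members were under 1 CPM and 29 were at 10 CPM or more. The fewest reads behind a member were 16 in X1 and 611 in X2. In whole worms and in sorted pools alike, fewer cells of a type and less RNA per cell cannot be told apart.

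**Figure D1:**
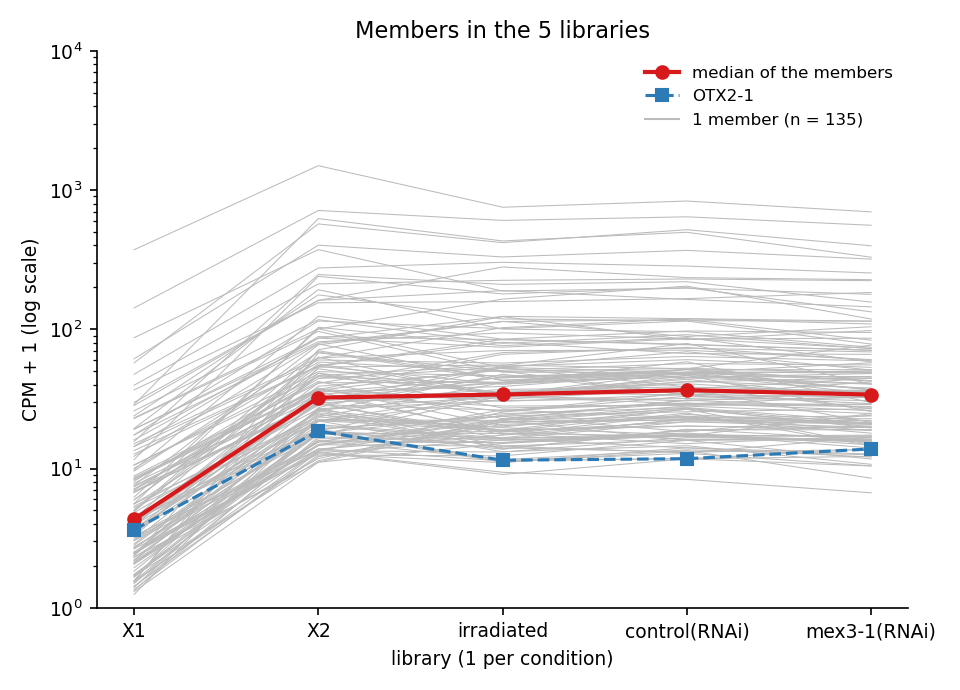
CPM + 1 of each of the 135 members (grey lines, log axis) in the 5 libraries, with the median of the members (red) and *OTX2-1* (blue, dashed). The median rises from 3.32 CPM in X1 to 31.3 CPM in X2 and lies at 33.03, 35.6 and 32.97 CPM in irradiated, *control(RNAi)* and *mex3-1(RNAi)* worms. CPM is not corrected for transcript length, so heights of lines do not rank the transcripts.

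Within the whole worms the 3 libraries lay close together. The highest of the 3 exceeded the lowest by a median of 1.23-fold, with a range of 1.02 to 1.97. X2 stood above all 3 whole-worm libraries for 58 members, below all 3 for 48 and between them for 29. The rule bounds the ratios among the whole worms too, so their closeness follows from it. That X2 lay near the whole worms and X1 far below also follows from the rule, and only the order within the bounds is described. These counts use CPM as it stands, without the median log2 shift of 0.31 of X2 over irradiated worms.

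Each bound removed a different number of transcripts. Of the 7648 with at least 10 CPM in X2, 396 had an X2/X1 ratio of at least 4, which is 5.18%. Of these X2-biased transcripts 150 were within 2-fold between X2 and irradiated worms, 136 of the 150 also met the bound on *control(RNAi)* over irradiated worms, and 135 met the last one. Taken alone over the 7648, the bound on X2 over irradiated worms was met by 43.1%, that on *control(RNAi)* over irradiated worms by 79.1% and that on *mex3-1(RNAi)* over *control(RNAi)* by 98.8%. The transcripts nearest the bounds show how continuous the edges are. Just inside the X2 bound lay SmedASXL_019015 at 10.1 CPM and just outside it SmedASXL_012506 at 9.995 CPM. The X2/X1 ratio was 4.02 for SmedASXL_018704, the last one in, and 3.97 for SmedASXL_006512, the first one out. For X2 over irradiated worms the edges were SmedASXL_009530 at 0.508 against SmedASXL_017184 at 0.485, and SmedASXL_018704 at 1.99 against SmedASXL_061407 at 2.02. For *control(RNAi)* over irradiated worms they were SmedASXL_005002 at 0.675 against SmedASXL_017609 at 0.617, and SmedASXL_012223 at 1.46 against SmedASXL_012349 at 1.54. The lower bound of the last ratio fell between SmedASXL_012222 at 0.508 and SmedASXL_003977 at 0.474, and its upper bound excluded no transcript, since the highest member, SmedASXL_010628, was at 1.48.

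**Figure D2:**
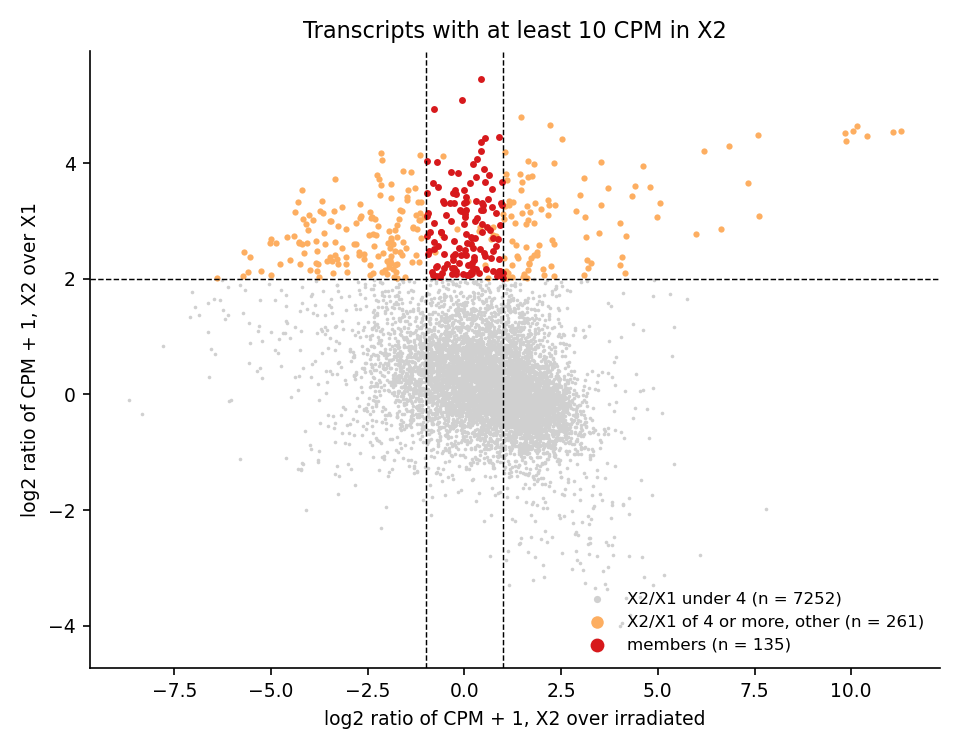
Log2 ratios of CPM + 1 for the 7648 transcripts with at least 10 CPM in X2: X2 over irradiated worms (x axis) and X2 over X1 (y axis), with the bounds of the rule as dashed lines. The 135 members (red) fill the middle of the band of 396 X2-biased transcripts, which reaches far to both sides.

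The X2-biased transcripts fell into 3 classes by their X2 level against irradiated worms. In X2, 146 were below 0.5 of the irradiated level, 150 lay within 0.5 to 2 and 100 were above 2. In the middle class, which holds the members, 136 (90.7%) had a *control(RNAi)* level within 0.67 to 1.5 of irradiated worms, 12 were above and 2 below. That share was 89.0% (130 of 146) in the class below 0.5, and it was 50 of 100 in the class above 2, where the other 50 were all above 1.5. Both ratios share the irradiated library, so these shares are a description. X2/X1 and *control(RNAi)* over irradiated share no library, and the bound on the latter was met by 79.8% of the 396 X2-biased transcripts beside 79.1% of all 7648. The share was thus nearly the same with and without the X2/X1 bound.

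X2/X1 of the members ranged from 4.02 to 44.0 with a median of 6.57. It was under 5 for 36 members, at least 8 for 55 and at least 16 for 10. SmedASXL_005002 had the largest ratio. It was at 0.540 CPM in X1, 66.7 CPM in X2, 49.1 CPM in irradiated worms, 32.8 CPM in *control(RNAi)* and 40.9 CPM in *mex3-1(RNAi)* worms, and X2/X1 was 44.0 (38.6 to 49.3). It was thus nearly absent from the X1 library, and among the whole worms highest after irradiation. SmedASXL_010628 was at 0.571 CPM in X1, 52.5 CPM in X2, 54.4 CPM in irradiated worms, 51.1 CPM in *control(RNAi)* and 76.02 CPM in *mex3-1(RNAi)* worms, with an X2/X1 of 34.1 (29.8 to 38.3). Here X2, irradiated and *control(RNAi)* values nearly coincided and the *mex3-1(RNAi)* library stood highest. SmedASXL_012438 was at 1.34 CPM in X1, 70.3 CPM in X2, 122 CPM in irradiated worms, 83.3 CPM in *control(RNAi)* and 97.0 CPM in *mex3-1(RNAi)* worms, with an X2/X1 of 30.4 (26.8 to 34.5). For this transcript all whole-worm values exceeded X2. SmedASXL_016735 had the lowest X1 level of all members, 0.247 CPM from 16 reads, against 26.2 CPM in X2, 13.5 CPM in irradiated, 15.03 CPM in *control(RNAi)* and 15.6 CPM in *mex3-1(RNAi)* worms. Its X2/X1 was 21.8 (19.3 to 23.9). None of these 4 transcripts has a name in the sources used here.

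A trio among the members with the largest X2/X1 ratios moved in near-identical steps. SmedASXL_015330 was at 27.8 CPM in X1, 622 CPM in X2, 430 CPM in irradiated, 496 CPM in *control(RNAi)* and 328 CPM in *mex3-1(RNAi)* worms. SmedASXL_018685 was at 10.6, 239, 178, 198 and 132 CPM in the same order of libraries. SmedASXL_061328 was at 4.597, 102, 75.3, 86.2 and 57.2 CPM. In each of the 3, X2 was highest and X1 lowest, and *mex3-1(RNAi)* was the lowest of the whole worms. X2/X1 was 21.7 (20.7 to 22.7), 20.7 (19.3 to 22.2) and 18.5 (16.8 to 20.4). *mex3-1(RNAi)* over *control(RNAi)* was 0.663 (0.651 to 0.674), 0.6699 (0.652 to 0.688) and 0.668 (0.641 to 0.696). For SmedASXL_018685 and SmedASXL_015330 each is the member nearest to the other over the 4 ratios of the rule, with a largest difference of 0.11 on the log2 scale. Whether the 3 are parts or copies of 1 gene that share reads cannot be read from the files. SmedASXL_005575 closed the 8 largest ratios at 16.7 (14.7 to 18.7), with 0.401 CPM in X1, 22.45 CPM in X2 and 17.7, 15.2 and 14.9 CPM in irradiated, *control(RNAi)* and *mex3-1(RNAi)* worms.

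The 5 members with the most reads in X2 were SmedASXL_018704, SmedASXL_012561, SmedASXL_015330, SmedASXL_018750 and SmedASXL_002116. SmedASXL_018704 was at 371 CPM in X1, 1494 CPM in X2, 751 CPM in irradiated, 833 CPM in *control(RNAi)* and 696 CPM in *mex3-1(RNAi)* worms. It lay at the corner of the rule, with X2/X1 at 4.02 (3.96 to 4.07) and X2 over irradiated at 1.99 (1.97 to 2.01), and both intervals reach past the bound. SmedASXL_012561 had 141 CPM in X1, against 712 CPM in X2, with 604, 641 and 557 CPM in irradiated, *control(RNAi)* and *mex3-1(RNAi)* worms. SmedASXL_018750 had 56.401 CPM in X1, against 570 CPM in X2, with 418, 518 and 397 CPM in the same whole worms. SmedASXL_002116 had 60.3 CPM in X1, against 401 CPM in X2, with 330, 368 and 318 CPM. These 5 share an order: X2 highest, then *control(RNAi)*, irradiated, *mex3-1(RNAi)* and X1. Their *mex3-1(RNAi)* over *control(RNAi)* ratios ran from 0.663 for SmedASXL_015330 to 0.870 (0.858 to 0.882) for SmedASXL_012561. With more reads their intervals are narrower than those of the members with little X1 signal.

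X2 over irradiated worms had a median of 1.03 among the members, between 0.508 and 1.99. On the log2 scale that median was 0.05, or -0.26 relative to the shift of all transcripts. The ratio was above 1 for 76 members and below 1 for 59. Its interval lay above 1 for 67 members, beside 66.4% of the 7648 transcripts, and below 1 for 54, beside 29.8%. It included 1 for 14 members. At 1.5-fold, 25 members were higher (53.9% of the 7648) and 25 lower (20.2%). The rule set this ratio, so nothing is read from these counts. At the upper end, SmedASXL_003901 was at 372 CPM in X2 and 187 CPM in irradiated worms, with 86.0 CPM in X1, 196 CPM in *control(RNAi)* and 177 CPM in *mex3-1(RNAi)* worms. Its relative log2 ratio was 0.68 (0.65 to 0.71), the same as that of SmedASXL_018704 at 0.68 (0.66 to 0.69). SmedASXL_018038 followed at 0.67 (0.57 to 0.77), with 2.65 CPM in X1, 34.6 CPM in X2 and 16.97, 16.01 and 16.4 CPM in irradiated, *control(RNAi)* and *mex3-1(RNAi)* worms. In all 3 the whole-worm values nearly coincided, and X2 stood alone above them.

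At the lower end X2 stood below all whole-worm libraries. SmedASXL_009530 was at 0.694 CPM in X1, 10.4 CPM in X2, 21.4 CPM in irradiated, 22.55 CPM in *control(RNAi)* and 17.8 CPM in *mex3-1(RNAi)* worms, a relative log2 ratio of X2 over irradiated of -1.29 (-1.42 to -1.16). SmedASXL_005190 had 0.309 CPM in X1, against 10.1 CPM in X2, and stood at 20.8, 21.2 and 21.1 CPM in irradiated, *control(RNAi)* and *mex3-1(RNAi)* worms, at -1.28 (-1.41 to -1.16). Its whole-worm values were the closest together of all members, at 1.02-fold between the highest and the lowest. SmedASXL_018253 was at 0.663 CPM in X1, 17.6 CPM in X2 and 35.1, 36.3 and 43.4 CPM in the whole worms, at -1.27 (-1.37 to -1.17). Against these, both ends of the range had *control(RNAi)* over irradiated ratios near 1: from 0.947 to 1.11 for the 3 highest and from 1.02 to 1.05 for the 3 lowest.

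*control(RNAi)* over irradiated worms had a median of 1.10 among the members (0.14 on the log2 scale), with quartiles of 1.01 and 1.21. Over the 7648 transcripts the median was 1.18, with quartiles of 1.00 and 1.42. The interval lay above 1 for 86 members, beside 67.2% of the 7648, lay below 1 for 28, beside 18.2%, and included 1 for 21. By the rule no member reached 1.5-fold in either direction, which 19.8% of the 7648 did upward and 1.06% downward. The 3 highest were SmedASXL_012223, SmedASXL_002407 and SmedASXL_012225. SmedASXL_002407 was at 33.03 CPM in irradiated worms and at 48.4 and 47.5 CPM in *control(RNAi)* and *mex3-1(RNAi)* worms, with 4.03 CPM in X1 and 51.1 CPM in X2, so that its ratio was 1.45 (1.38 to 1.53) and *mex3-1(RNAi)* over *control(RNAi)* was 0.982 (0.935 to 1.03). The other 2 were lower in *mex3-1(RNAi)* worms. In 27 members irradiated worms stood highest of the whole worms. The 3 lowest ratios were those of SmedASXL_005002 at 0.675 (0.641 to 0.711), SmedASXL_012438 at 0.684 (0.661 to 0.707) and SmedASXL_010849 at 0.711 (0.674 to 0.749). SmedASXL_010849 was at 2.67 CPM in X1, 24.6 CPM in X2, 46.5 CPM in irradiated, 32.8 CPM in *control(RNAi)* and 35.4 CPM in *mex3-1(RNAi)* worms.

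**Figure D3:**
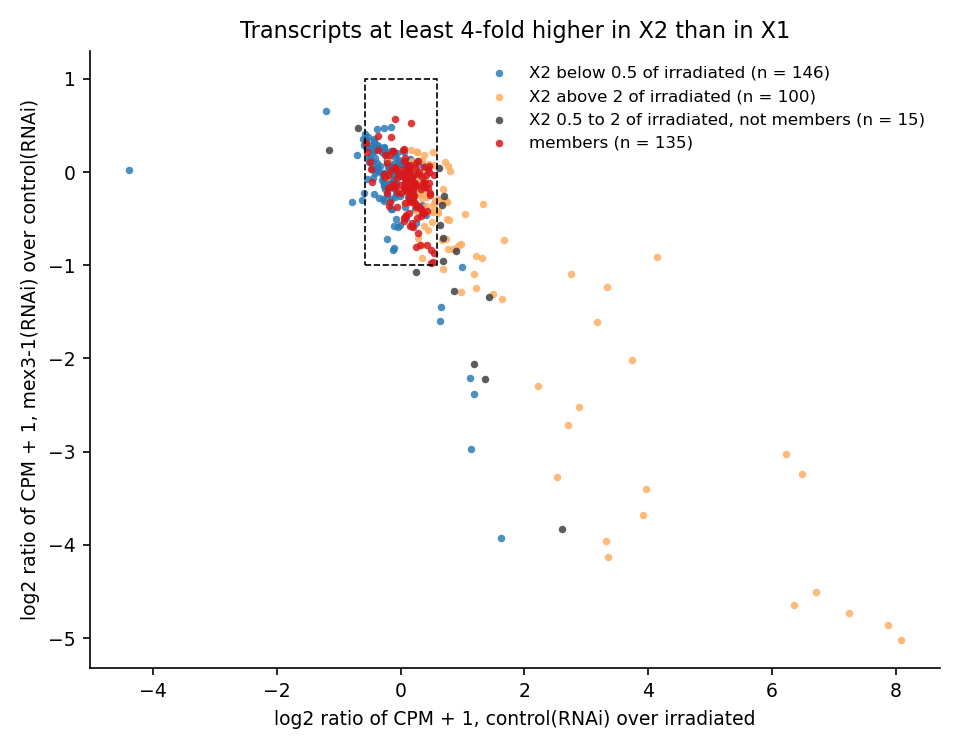
Log2 ratios of CPM + 1 for the 396 transcripts with an X2/X1 of at least 4: *control(RNAi)* over irradiated worms (x axis) and *mex3-1(RNAi)* over *control(RNAi)* (y axis), coloured by class of X2 over irradiated. The dashed box marks the bounds of the rule, and the 135 members (red) lie inside it by construction, while 50 of the 100 transcripts above 2 in X2 (orange) lie to its right. The axes share the *control(RNAi)* library.

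*mex3-1(RNAi)* over *control(RNAi)* had a median of 0.916 among the members (-0.13 on the log2 scale), with quartiles of 0.806 and 1.00 and a range of 0.508 to 1.48. It was below 1 for 99 of 135 members (73.3%), beside 51.2% of the 7648 transcripts and 67.7% of the 396 X2-biased ones. The interval lay below 1 for 80 members (59.3%), beside 30.1% of the 7648 and 57.6% of the 396. It lay above 1 for 20 (14.8%), beside 28.7% and 24.0%. It included 1 for 35. At least 1.5-fold lower were 9 members (6.67%), beside 1.61% of the 7648 and 17.4% of the 396. None was 1.5-fold higher, beside 1.39% of the 7648. The members' share with an interval below 1 was thus close to that of the X2-biased set that holds them. The bound on this ratio removed only 1 transcript after the others. The bound on *control(RNAi)* over irradiated worms, however, limits the divisor of this ratio. Among the 150 X2-biased transcripts within 0.5 to 2 in X2 over irradiated worms, 12 were above that bound and 2 below it. How much the rule shaped these counts was not tested, and they describe 1 library of each condition. With a pseudocount of 5 CPM, or with the median ratio of all transcripts set to 1, the members' median log2 ratio stayed between -0.11 and -0.14.

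The other X2-biased transcripts were grouped by the ratios that the rule used, which for *control(RNAi)* over irradiated worms share a library with *mex3-1(RNAi)* over *control(RNAi)*, so their values are set side by side as a description. The 50 that were above 2 in X2 over irradiated worms and above 1.5 in *control(RNAi)* over irradiated worms had a median of 0.506, and 25 of them were at 0.5 or lower. They were chosen for a high *control(RNAi)* value, which is also the divisor of this ratio. How much of the low median comes from that choice was not tested. The 50 that were above 2 in X2 over irradiated worms but not above 1.5 in *control(RNAi)* over irradiated worms had a median of 0.913, with 35 of 50 below 1, close to the members' 0.916 and 73.3%. The 146 that were below 0.5 of the irradiated level in X2 had a median of 0.992, with 51.4% below 1. Transcripts that met all bounds of the rule except that X2 and X1 were within 2-fold, 2631 in number, had a median of 0.999, with 50.7% below 1 and 0.266% at least 1.5-fold lower. *AGAT-1*, a marker of late epidermal progeny, was at 14.8 CPM in X1, 254 CPM in X2, 20.9 CPM in irradiated, 224 CPM in *control(RNAi)* and 11.8 CPM in *mex3-1(RNAi)* worms, a *mex3-1(RNAi)* over *control(RNAi)* ratio of 0.0570. The rule's lower bound of 0.5 on this ratio keeps every member away from that value.

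**Figure D4:**
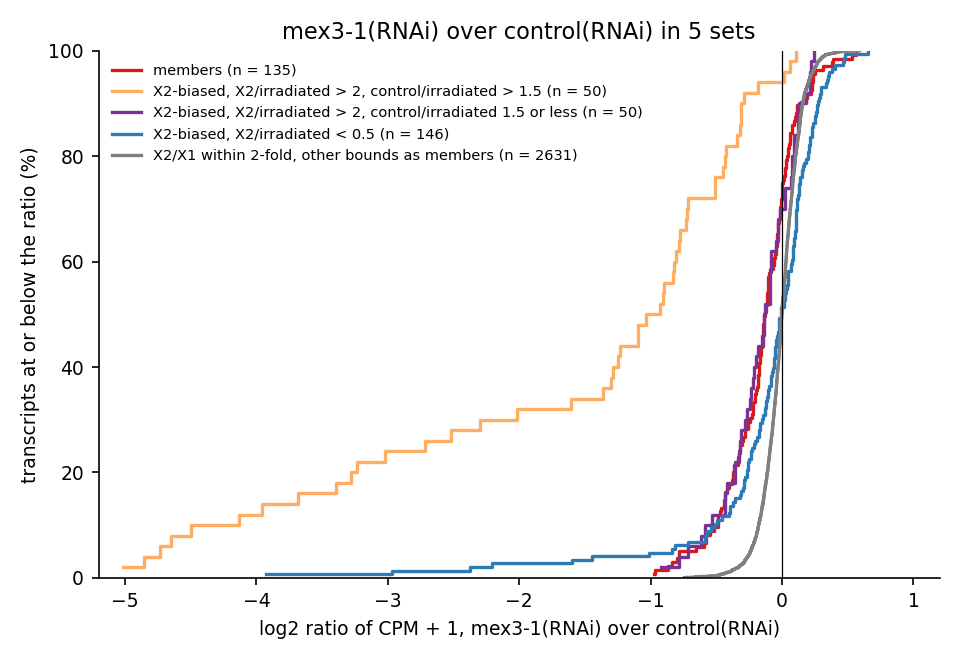
Cumulative share of transcripts (y axis, %) against the log2 ratio of CPM + 1 of *mex3-1(RNAi)* over *control(RNAi)* (x axis) for the 135 members, the 2 sets of 50 X2-biased transcripts above 2 in X2 over irradiated worms (*control(RNAi)* over irradiated above 1.5, orange, or not, purple), the 146 X2-biased transcripts below 0.5 of the irradiated level in X2, and the 2631 transcripts within 2-fold between X2 and X1. The curve of the members crosses 0 at 73.3%, near the purple one, against 50.7% for the last set, and the rule ends it at -1.

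The members with the lowest *mex3-1(RNAi)* over *control(RNAi)* ratio carry neighbouring identifiers. SmedASXL_012222 was at 2.44 CPM in X1, 33.2 CPM in X2, 40.5 CPM in irradiated, 57.5 CPM in *control(RNAi)* and 28.7 CPM in *mex3-1(RNAi)* worms, a ratio of 0.508 (0.481 to 0.537). SmedASXL_012225 was at 3.01, 45.5, 54.0, 78.1 and 39.4 CPM in the same order, a ratio of 0.512 (0.488 to 0.536). SmedASXL_012223 was at 2.07, 31.7, 31.0, 45.7 and 24.7 CPM, a ratio of 0.549 (0.517 to 0.582). The fourth identifier of the run, SmedASXL_012224, named after its values were seen, was at 0.941, 16.6, 17.6, 24.0 and 13.6 CPM and had a ratio of 0.582. All 4 were highest in *control(RNAi)* worms and lower in both irradiated and *mex3-1(RNAi)* worms, with *control(RNAi)* over irradiated between 1.35 and 1.46, near the upper bound of the rule. They are 4 of the 9 members at least 1.5-fold lower in *mex3-1(RNAi)* worms. Such runs can be pieces or near copies of 1 gene among which reads are split, so the 4 may not be 4 separate measurements.

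SmedASXL_003977 was the only transcript that met every other bound and failed that on *mex3-1(RNAi)* over *control(RNAi)*. It is listed with a protein match to mouse PLAC8, a small cysteine-rich protein. Its levels were 11.1 CPM in X1, 121 CPM in X2, 113 CPM in irradiated, 135 CPM in *control(RNAi)* and 63.5 CPM in *mex3-1(RNAi)* worms. The last ratio was 0.474 (0.457 to 0.492). At the opposite end stood SmedASXL_010628 at 1.48 (1.42 to 1.54), SmedASXL_006989 at 1.44 (1.34 to 1.56) and SmedASXL_018314 at 1.31 (1.22 to 1.41). SmedASXL_006989 was at 0.339 CPM in X1, 15.9 CPM in X2, 14.3 CPM in irradiated, 16.2 CPM in *control(RNAi)* and 23.8 CPM in *mex3-1(RNAi)* worms. SmedASXL_018314 was at 0.710 CPM in X1, 18.2 CPM in X2 and 22.7, 17.4 and 23.1 CPM in the same whole worms, so it was about as high in irradiated as in *mex3-1(RNAi)* worms. All 3 were under 1 CPM in X1. Among the 21 members under 1 CPM in X1 the median ratio was 0.995, with 8 intervals below 1 and 8 above. Among the 29 at 10 CPM or more in X1 it was 0.902, with 24 below and 2 above. These classes were formed after the values were seen.

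The ratios that share no library were only weakly related across the 135 members. Spearman's rho was -0.10 between X2/X1 and *mex3-1(RNAi)* over *control(RNAi)*, and 0.08 between X2/X1 and *control(RNAi)* over irradiated worms. It was -0.20 between X2 over irradiated worms and *mex3-1(RNAi)* over *control(RNAi)*. Over all 396 X2-biased transcripts the same values were -0.25, 0.19 and -0.45. Transcripts of the same libraries are not independent, and the bounds cut the range of every ratio. By X2/X1, the median *mex3-1(RNAi)* over *control(RNAi)* was 0.907 for the 36 members under 5, 0.961 for the 44 from 5 to under 8 and 0.880 for the 55 at 8 or more, so it followed no order.

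A single member had a gene name in the sources used here, *OTX2-1* (SmedASXL_013104). It is named for its match to OTX2, a homeodomain transcription factor known in mice for its role in the forming head and eye, and its fly match is Ocelliless. *OTX2-1* was at 2.64 CPM in X1, 17.6 CPM in X2, 10.5 CPM in irradiated, 10.8 CPM in *control(RNAi)* and 12.8 CPM in *mex3-1(RNAi)* worms. X2 was highest, the 3 whole-worm libraries lay close together and X1 was lowest. X2/X1 was 5.10 (4.50 to 5.78), and the relative log2 ratio of X2 over irradiated was 0.38 (0.25 to 0.51). *control(RNAi)* over irradiated was 1.03 (0.933 to 1.13), an interval that includes 1, and *mex3-1(RNAi)* over *control(RNAi)* was 1.17 (1.07 to 1.29). *OTX2-1* was also the sole member on the study's list of the most X2-enriched transcripts. The study drew that list from transcripts that its replicated comparison called higher in X2 than in irradiated worms. In the libraries used here X2 over irradiated worms was 1.62 (1.48 to 1.77) for *OTX2-1*, higher in X2 but within the rule's bound of 2. Of the 98 transcripts on that list, 67 had at least 10 CPM in X2, 26 of these had an X2/X1 of at least 4, and 23 of the 26 were above 2 in X2 over irradiated worms. The list was made with these libraries among others, so it is not independent of the rule. Of 15 transcription factors on the study's lists, 12 had at least 10 CPM in X2, 4 were X2-biased, 3 of these were above 2 in X2 over irradiated worms, and the other one was *OTX2-1*.

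No lineage marker on the study's lists was a member. Of the 7648 transcripts, 5.18% were X2-biased and 1.77% met the whole rule. The study picked its further epithelial progenitor transcripts for levels in X2 or in unirradiated worms above those in irradiated worms. The rule's bounds against irradiated worms tend to keep such transcripts out, so their absence is not read as a result. Of 59 known stem cell transcripts, 57 had at least 10 CPM in X2 and 0 had an X2/X1 of at least 4. Their summed level was 33780 CPM in X1, 19769 CPM in X2, 2903 CPM in irradiated worms, 6606 CPM in *control(RNAi)* and 7913 CPM in *mex3-1(RNAi)* worms. Of 5 known X2 progenitor transcripts, 4 were X2-biased, and all 4 were above 2 in X2 over irradiated worms. Their sum was 426 CPM in X1, 7478 CPM in X2, 54.3 CPM in irradiated, 1175 CPM in *control(RNAi)* and 84.4 CPM in *mex3-1(RNAi)* worms. Of 32 further epithelial progenitor transcripts, 12 were X2-biased with at least 10 CPM in X2, 10 of them above 2 in X2 over irradiated worms, 1 below 0.5 and 1 within the bound, and this last one failed both remaining bounds. That transcript is *pmp-6*, named after its values were seen. It was at 3.47 CPM in X1, 28.8 CPM in X2 and 15.9 CPM in irradiated worms, much like a member, but at 101 CPM in *control(RNAi)* and 6.22 CPM in *mex3-1(RNAi)* worms. Of 199 transcripts that the study lists as lowered after *mex3-1* RNAi, 36 were X2-biased and 6 of these were within 0.5 to 2 in X2 over irradiated worms, and 0 were members. Of the 36, 1 met the bound on *control(RNAi)* over irradiated worms and 0 met that on *mex3-1(RNAi)* over *control(RNAi)*. Both bounds of the rule thus keep such transcripts out. No list marks the other cells of the X2 gate, so which cells carry the members was not tested, and the other 134 members have no name here.

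Few members carry neighbouring identifiers. In 10 of 135 members (7.41%) the identifier number was next to that of another member, and in 14 (10.4%) it was within 3 of one. For the 396 X2-biased transcripts these shares were 6.06% and 13.9%, and for the 7648 they were 64.8% and 89.0%. The shares depend on the size of the set and are not compared. The 10 formed 3 pairs and the run of 4. Within a pair the members resembled each other in some cases and not in others. SmedASXL_018037, named after its values were seen, paired with SmedASXL_018038 and had 23.7 CPM in X2 and 13.1, 12.2 and 12.7 CPM in irradiated, *control(RNAi)* and *mex3-1(RNAi)* worms, the same shape as its neighbour. SmedASXL_012167 and SmedASXL_012168, also named afterwards, had *mex3-1(RNAi)* over *control(RNAi)* ratios of 0.721 and 1.14, on either side of 1.

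**Figure D5:**
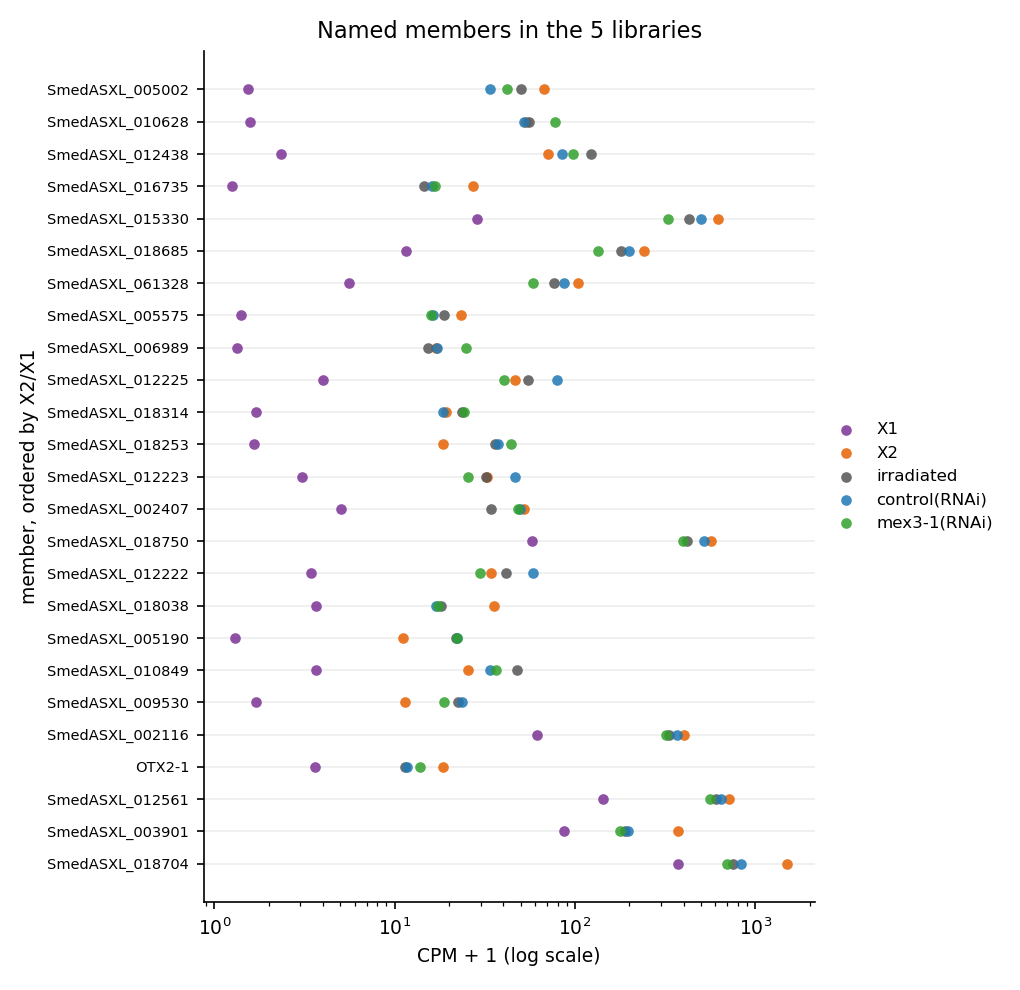
CPM + 1 (log axis) of the 25 members named by rule, ordered by X2/X1 with the largest at the top, 1 point for each of the 5 libraries. The X1 point is the leftmost in every row, from 0.247 CPM for SmedASXL_016735 to 371 CPM for SmedASXL_018704. In some rows, such as SmedASXL_018704 and SmedASXL_003901, the X2 point also stands apart, to the right of the whole worms.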

How the data were processed

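Poly(A)-selected RNA of 5 libraries (1 per condition) was sequenced as single-end reads by the authors, mapped untrimmed to SmedASXL transcripts (Bowtie2 2.2.4), and deposited as CPM + 1, a signal of mapped reads scaled to equal library totals with a pseudocount of 1, not corrected for transcript length. In this deposited signal every value was a whole number of reads within 0.01 read, so the reads were recovered. Deposited fold changes and adjusted p-values of the authors' own DESeq comparisons, and 10 further columns, which hold libraries outside this series and could have served as replicates of some conditions, were not used here. A row without a transcript name held at most 4.94e-05% of the reads and was left out. Left out were 14040 transcripts found only in the RNAi table and 13 that it lacks.

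Ratios are of CPM + 1, which understates changes at low levels. Their 95% intervals are exact Clopper-Pearson intervals of the reads of one library among those of both. No member had 0 reads in any library. With 1 library of this series per condition, no test across worms was made, and no p-value is given. The members and lists were chosen with earlier results of these data known. List names come from the study's supplementary files. The X2 minimum was applied to CPM without the pseudocount. Members were named if they had a name on a list, were among the 8 largest X2/X1, the 5 with most X2 reads, or the 3 highest or lowest of the other 3 ratios, beside the transcripts nearest each bound and *piwi-1*, *prog-1*, *AGAT-1* and *mex3-1*. Alternatives were other pseudocounts, scalings and bounds. The calculation was tested on simulated reads. The tools were scipy 1.17.1, numpy 2.4.6, pandas 2.3.3 and matplotlib 3.10.9, run in Python 3.11.15. No sequence is printed, since the transcriptome was not used here.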

Additional observations from a re-analysis of the deposited data

How the results depend on the processing

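The rule gave 135 members. The count was 68 with a pseudocount of 5 CPM (62 of them members), 85 with X2 over irradiated from 0.67 to 1.5, and 230 with X2/X1 of at least 3. Under the other 12 alternatives it lay between 94 and 188, and it was 131 (113 of them members) with the median log2 ratio of all transcripts set to 0. Pseudocounts of 0.1 and 5 CPM moved the median log2 ratio of X2/X1 from 2.72 to 3.03 and 1.97, and that of X1 over irradiated from -2.74 to -3.10 and -2.0001. With the median of all transcripts set to 0, the members' median was -0.26 for X2 over irradiated (0.05 before), 0.049 for *control(RNAi)* over irradiated, -0.14 for *mex3-1(RNAi)* over irradiated and -2.96 for X1 over irradiated. Without the 10 most abundant transcripts of each library, X2 over irradiated was 0.19. The median of *mex3-1(RNAi)* over *control(RNAi)* moved by less than counting error under all 5 alternatives tried for it. Of 600 recomputed log2 ratios of the 25 named members, 0 that were at least 2-fold changed direction, which these alternatives could hardly bring about. Each alternative recomputed 150 ratios. With the median of all transcripts set to 0, 85 of them moved beyond counting error. Pseudocounts of 0.1 and 5 CPM so moved 38 and 55, and leaving out the 10 most abundant transcripts moved 48. The alternative without a bound on *mex3-1(RNAi)* over *control(RNAi)* was chosen after seeing the data and gave 136.

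No paired analysis was possible because each condition has 1 library. Spread between worms was not measured, the members rest on point values near the bounds, and 94 of them kept every ratio inside its bounds with its whole interval. For members with few X1 reads, from 16 up, X2/X1 depends most on the pseudocount.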
